A study of Mus musculus with 48 samples.

Results

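Ribosome loading of liver messages was measured by setting ribosome footprints against messenger RNA within the liver of wild-type C57BL/6 mice at postnatal day 42 (P42) and embryonic day 15.5 (E15.5). The comparison uses 8 of the 48 libraries of the series: 2 Ribo-seq and 2 RNA-seq libraries from P42 liver, and 2 Ribo-seq and 2 RNA-seq libraries from E15.5 liver. The other 40 libraries come from brain, retina, heart, kidney and lung at the same ages. No group carries a transgene, mutation or treatment, and the 2 libraries of a group are biological replicates per the series' design text. Whether the Ribo-seq and RNA-seq libraries that share a number come from the same tissue piece is not given in the sources used here. Of 22055 genes in the deposited tables, 7009 had a mean RNA-seq level of 5 TPM (transcript abundance corrected for gene length and library total) or more in P42 liver and 9892 in E15.5 liver, and 6327 passed this floor at both ages. These are all genes that the rule admits. The rule uses the RNA-seq level, which is also the denominator of the ratio, so genes with footprints but little message are left out.

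Ribo-seq sequences the short stretch of message that a translating ribosome covers. Loading is the footprint level of a gene divided by its message level. Both levels are corrected for gene length, so this ratio describes how densely ribosomes sit on a gene's messages relative to those of other genes. In the liver this ratio is of interest for several classic forms of translational control. Messages of ribosomal proteins and elongation factors start with a C and a run of pyrimidines (the 5′ terminal oligopyrimidine tract, or TOP) and leave polysomes together when mTOR signalling is low. Ferritin messages carry an iron-responsive element that binds iron regulatory proteins when iron is scarce. Fetal liver is also the main blood-forming organ before birth, so its RNA holds red cell and granulocyte messages beside those of hepatocytes.

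The label of the tissue held in the data. All 10 hepatocyte markers reached 1 TPM in both libraries of P42 Ribo-seq and of P42 RNA-seq, and 8 did so in E15.5 Ribo-seq and 7 in E15.5 RNA-seq. Summed erythroid markers were at 136 to 150 TPM in P42 Ribo-seq and 463 to 675 TPM in P42 RNA-seq, against 25928 to 28063 TPM in E15.5 Ribo-seq and 105800 to 121410 TPM in E15.5 RNA-seq. In such bulk tissue, fewer cells of a type and less RNA per cell cannot be told apart. The libraries also differed in their make-up. Listed genes held 43.4% and 60.8% of the TPM total in P42 Ribo-seq and 91.0% and 89.2% in P42 RNA-seq, against 59.2% and 58.4% in E15.5 Ribo-seq and 69.7% and 67.3% in E15.5 RNA-seq, so ratios were centred on the median tested gene. Replicate libraries correlated across genes at 0.991 for Ribo-seq and 0.992 for RNA-seq at P42, and at 0.996 for Ribo-seq and 0.958 for RNA-seq at E15.5. Summed skeletal muscle markers were at 25.7 TPM in one E15.5 RNA-seq library and 731.5 TPM in the other, with 33.0 to 36.2 TPM in E15.5 Ribo-seq. Summed lung markers were at 43.5 to 75.1 TPM in P42 Ribo-seq against 0 to 0.0573 TPM in P42 RNA-seq, where Sftpc and Scgb1a1 were at 0. The part of either marker group in the results was not tested. Each age and assay has its own deposited table, so a difference between ages cannot be told apart from one between tables.

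Every loading value given here is the log2 ratio of Ribo-seq to RNA-seq, each as TPM + 1, minus its median over the tested genes, so 0 marks the median message. This scale understates differences of genes with few TPM. Calls needed both a limma adjusted p under 0.05 and a centred log2 ratio of 1 or more in size. In P42 liver 972 genes (13.9% of those tested) were called higher and 1094 (15.6%) lower. In E15.5 liver 1373 genes (13.9%) were called higher and 1526 (15.4%) lower. Before centring, the median log2 ratio was -1.04 at P42 and -0.79 at E15.5, and that of the change was -0.30. Directions are relative to these medians, so a centred value between 0 and 1.04 at P42, or between 0 and 0.79 at E15.5, has the other sign without centring. Of the 6327 genes with a ratio at both ages, 377 were called higher at both and 460 lower at both. Opposite calls were fewer: 32 genes were lower at P42 and higher at E15.5, and 2 were higher at P42 and lower at E15.5. By the test of the change itself, P42 minus E15.5, loading rose for 564 genes (8.91%) and fell for 796 (12.6%). Without centring the counts were 111 higher and 3621 lower at P42, 275 higher and 4098 lower at E15.5, and 251 higher and 1270 lower for the change. Leaving out a single E15.5 Ribo-seq library left 305 or 298 genes that rose and 524 or 500 that fell, and leaving out P42 RNA-seq replicate 2 left 373 that rose.

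**Figure D1:**
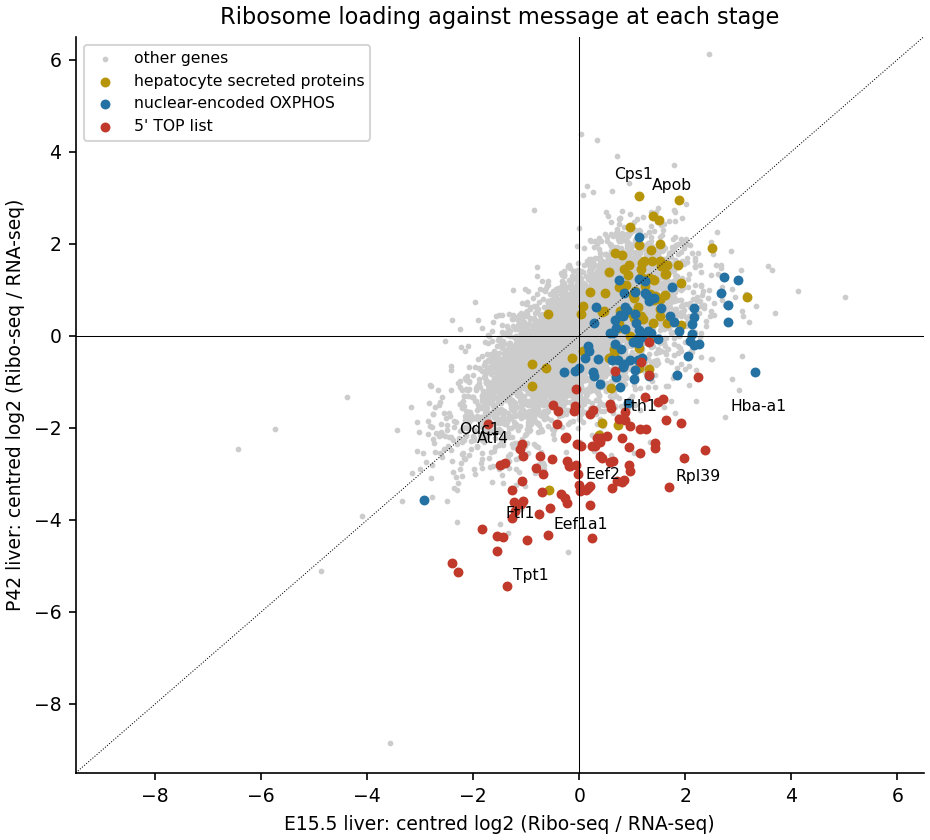
Centred log2 ratio of Ribo-seq to RNA-seq in P42 liver and in E15.5 liver for the 6327 genes tested at both ages, with genes of the TOP list, nuclear encoded respiratory chain subunits and hepatocyte secreted proteins in colour and 11 genes named. Each point is a gene and the dotted line marks equal ratios. The TOP genes lie far below 0 on the P42 axis (median -2.66) and around 0 on the E15.5 axis (median 0.08).

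The TOP messages, those of ribosomal proteins and elongation factors above all, had the lowest median loading in P42 liver among the lists described here. Of 98 TOP genes, all of which were tested, 93 were called lower and 0 higher at P42, with a median of -2.66, beside 15.6% called lower among all tested genes. Proteins of the ribosome made up 79 of these calls out of 80 genes (median -2.75), and elongation factors and other TOP messages 14 out of 18 (median -1.88). The 5 that missed the call had values of -0.89 for Rpl27 (-1.08 and called without P42 Ribo-seq replicate 1), -0.86 for Nap1l1, -0.76 for Eef1d, -0.57 for Eif3e and -0.13 for Vim, which encodes the intermediate filament protein vimentin. TOP genes were 1.40% of the genes tested and 8.50% of the genes called lower at P42. Together they held 0.126% and 0.198% of the TPM total in P42 Ribo-seq, against 2.40% and 2.69% in P42 RNA-seq.

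Among single members, Eef1a1, the factor that brings aminoacyl tRNA to the ribosome, had 45.5 and 76.0 TPM in P42 Ribo-seq, against 2329 and 2657 TPM in P42 RNA-seq. In E15.5 liver it had 1037 and 1183 TPM in Ribo-seq, against 2812 and 2985 TPM in RNA-seq. The message was thus abundant at both ages while footprints were far fewer in both P42 libraries, and the groups did not overlap. Its centred ratio was -4.33 ± 0.27 (SE) at P42 (adjusted p = 1.02e-13) and -0.60 at E15.5, which was not called, and the ratio fell by 3.69 on the log2 scale (adjusted p = 2.34e-08). Eef2, which moves the ribosome along the message, had 28.5 and 52.2 TPM in P42 Ribo-seq, against 676 and 877 TPM in P42 RNA-seq. At E15.5 it had 833 and 878 TPM in Ribo-seq, against 1397 and 1578 TPM in RNA-seq, a ratio of -0.01 that lies at the median message. Its ratio at P42 was -3.24 and it fell by 3.19 on the log2 scale (adjusted p = 6.02e-07).

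Lowest of the list at P42 was Tpt1, the translationally controlled tumor protein, at -5.43. It had 5.92 and 11.3 TPM in P42 Ribo-seq, against 801 and 843 TPM in P42 RNA-seq. At E15.5 it had 100.1 and 125.4 TPM in Ribo-seq, against 724 and 348 TPM in RNA-seq, so the RNA-seq replicates differed more than the Ribo-seq ones. It was called lower at E15.5 too (-1.37), a call that ended without E15.5 RNA-seq replicate 1 (-0.88). Rplp1, an acidic protein of the ribosomal stalk, was low at both ages. It had 16.7 and 18.1 TPM in P42 Ribo-seq, against 1227 and 1451 TPM in P42 RNA-seq, and 397 and 378 TPM in E15.5 Ribo-seq, against 2944 and 3665 TPM in E15.5 RNA-seq. Its ratios were -5.14 at P42 and -2.29 at E15.5, both called. Rps20, a small subunit protein, had few footprints at P42, with 0.824 and 1.39 TPM in Ribo-seq, against 84.0 and 95.8 TPM in RNA-seq. At E15.5 its 53.8 and 47.5 TPM in Ribo-seq stood against 82.6 and 67.3 TPM in RNA-seq. Exons of Rps20 overlap another annotated gene.

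In E15.5 liver the same list was spread about the median message. Of the 98 genes 17 were called higher and 20 lower, with a median of 0.08, beside 13.9% and 15.4% of all genes tested, while without centring the median was -0.71, with 4 higher and 38 lower. Rpl39, a very short protein of the large subunit, was called higher at 1.70, with 180.5 and 151.6 TPM in E15.5 Ribo-seq, against 169 and 45.0 TPM in E15.5 RNA-seq. The RNA-seq replicates of Rpl39 lay far apart, and the call ended without E15.5 RNA-seq replicate 2 (0.82). Rpl36a was called higher at 1.97 and Npm1, the nucleolar assembly protein nucleophosmin, at 1.63, which without centring was 0.84 and not called. At the low end Rps12 was at -2.40 and Pabpc1, the poly(A)-binding protein, at -1.49. Of the 98 genes, 20 were called lower at both ages, 60 lower at P42 and neither way at E15.5, and 13 lower at P42 and higher at E15.5. Those 13 are part of the 32 genes of any kind with that pair of opposite calls.

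By the change between ages, 95 of the 98 fell and 0 rose, with a median of -2.66, beside 12.6% that fell among all tested genes. The other members were Rps25 at -0.96, Eif4a2 at -1.06 (adjusted p = 0.0894) and Eif2s3x at -0.15. Over all centred settings tried, single libraries left out among them, 88 to 96 fell. Rpl39 fell most, by 4.95 on the log2 scale. Pabpc1 was close to the limit at -1.27 and lost its call in 5 of the 8 fits without a single library. The median over the list was 8.45 and 12.99 TPM in P42 Ribo-seq and 154.5 and 173.1 TPM in P42 RNA-seq, against 162.8 and 163.5 TPM in E15.5 Ribo-seq and 269.1 and 255.0 TPM in E15.5 RNA-seq. Footprints thus differed far more between ages than messages did. Exons of 43 of the 98 genes overlap another annotated gene, and many ribosomal protein genes have near-identical processed copies, so single members are less certain than the list.

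**Figure D2:**
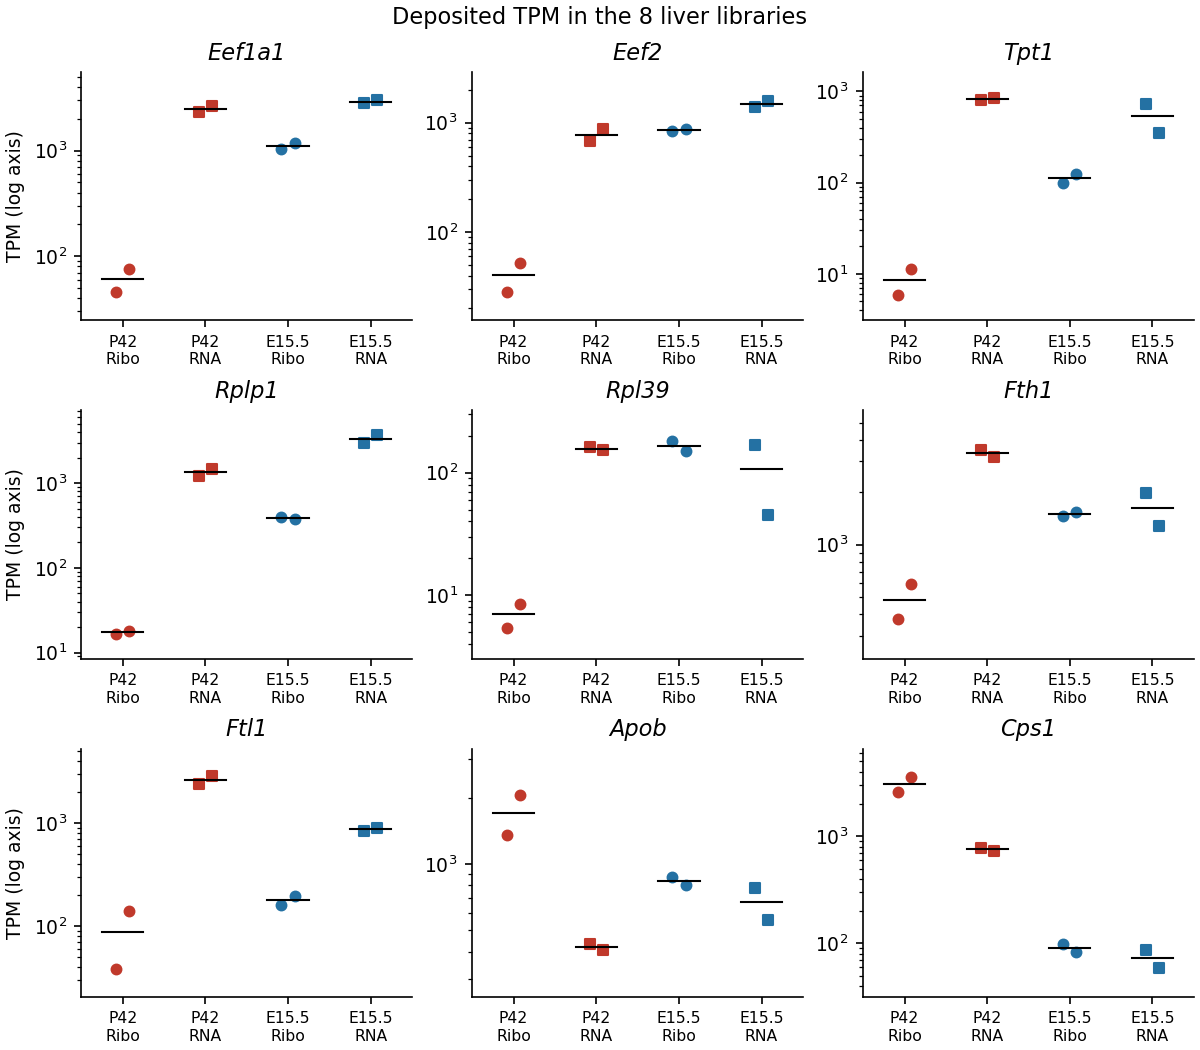
TPM on a log scale of named members in each of the 8 liver libraries, with P42 before E15.5 and Ribo-seq before RNA-seq. Eef1a1 falls to 45.5 and 76.0 TPM in P42 Ribo-seq while its lowest RNA-seq value at either age is 2329 TPM, whereas Apob and Cps1 are higher in P42 Ribo-seq than in P42 RNA-seq.

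The start of these messages is shown because the tract that defines TOP messages lies there. Each window holds 10 bases before and 25 bases from the RefSeq start on GRCm38.p6, read on the sense strand, and capitals mark the longest run of C and T.
Eef1a1, chr9:78481700-78481734, minus strand: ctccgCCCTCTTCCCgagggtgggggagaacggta
Eef2, chr10:81176621-81176655, plus strand: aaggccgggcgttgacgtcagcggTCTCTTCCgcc
Rplp2, chr7:141447641-141447675, plus strand: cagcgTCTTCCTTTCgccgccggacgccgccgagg
Rpl39, chrX:37085198-37085232, minus strand: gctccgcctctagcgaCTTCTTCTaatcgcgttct
Rps12, chr10:23787185-23787219, minus strand: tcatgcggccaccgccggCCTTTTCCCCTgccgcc
Tpt1, chr14:75845246-75845280, plus strand: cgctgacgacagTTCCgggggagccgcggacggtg
Alb, chr5:90460860-90460894, plus strand: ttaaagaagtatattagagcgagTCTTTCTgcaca
Apob, chr12:7977667-7977701, plus strand: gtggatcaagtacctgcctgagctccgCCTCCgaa
The 6 TOP genes shown are 5 with a long run and Tpt1, whose run is only 4 bases in this window. Rplp2, another stalk protein, was added for its run and was not chosen by the rule for named genes. Alb and Apob, which were not low at P42, are shown beside them. Of the 98 TOP genes 71 have an entry in the RefSeq table, and 35 of these (49.3%) hold a run of at least 7 pyrimidines in the window. The same holds for 1019 of 5414 other genes tested at P42 (18.8%), Alb among them with a run of 7. A C at the annotated start followed by 4 pyrimidines was found in 17 TOP genes (23.9%) and 121 others (2.24%). Annotated starts can miss the true start by several bases, so a window without a run says only that these letters are not in it.

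Set against the other tissues of the same age, the TOP list stood lower in P42 liver and higher in E15.5 liver. The difference tested was the liver ratio minus the mean ratio of the 5 other tissues, for genes at 5 TPM or more in all 6. At P42, 37 of 4195 genes (0.882%) were called higher in liver and 83 (1.98%) lower, and 45 of the lower calls are TOP genes (median -0.96). Between 35 and 54 TOP genes were called lower over the settings tried. Median loading of the list at P42 was -2.66 in liver, against -2.20 in kidney, -2.15 in heart, -2.15 in lung, -1.32 in brain and -0.69 in retina. Rps20 (-1.96), Rpl32 (-1.90), Eef2 (-1.88) and Eef1a1 (-1.86) were among those called. At E15.5, 521 of 7936 genes (6.57%) were called higher in liver and 205 (2.58%) lower, 9.15% in either direction. The median gene stood 0.48 higher in liver before centring, and without centring 1430 were called higher and 52 lower. Of the TOP genes 36 were called higher and 0 lower, with a median of 0.63, and without centring 53 were higher with a median of 1.11. List medians at E15.5 were 0.08 in liver, against -0.43 in brain, -0.54 in heart, -0.62 in retina, -0.64 in lung and -0.66 in kidney. The footprint share of the list was not higher in liver. TOP genes held 3.82% and 3.89% of the listed TPM in E15.5 liver Ribo-seq, against 3.56% to 5.20% in the other tissues. In E15.5 RNA-seq they held 6.11% and 6.44% in liver, against 5.93% to 10.1%. The E15.5 liver RNA-seq libraries also differed in histone and mitochondrially encoded shares, as given below. Their part in the TOP difference was not tested. Tpt1 (1.84) and Rpl39 (2.41) were among those called higher there, while Rplp1 (-0.80) was not called.

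**Figure D3:**
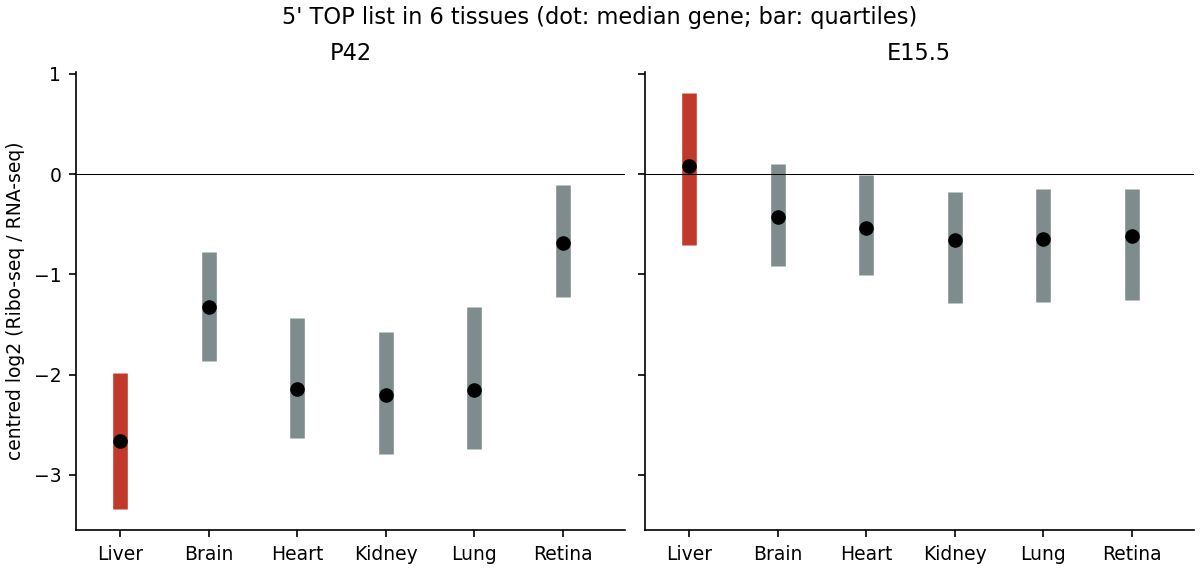
Median centred log2 ratio of Ribo-seq to RNA-seq of the 98 TOP genes in liver and the other 5 tissues at P42 and at E15.5, with quartiles as bars. Liver is lowest at P42 (-2.66) and highest at E15.5 (0.08).

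Genes with long coding sequences had a higher ratio of footprints to message than those with short ones in P42 liver. Outside the TOP, histone and mitochondrially encoded lists, median loading at P42 was -0.44 for coding sequences under 300 bases (246 genes), -0.45 for those from 300 bases (1005), -0.11 from 600 (2354), 0.30 from 1200 (2397), 0.55 from 2400 (757) and 1.18 from 4800 bases on (132). At E15.5 the same bins gave 0.27, 0.07, 0.02, -0.03, -0.06 and -0.08, with little slope and in the other direction. At E15.5 the medians of genes of 2400 bases or more minus those of genes under 600 bases came to -0.17 in liver, against 0.12 in brain, 0.12 in heart, 0.19 in lung, 0.41 in kidney and 0.41 in retina. Across genes, which are not independent replicates, Spearman's rho of loading with coding length was 0.37 at P42 (6891 genes) and -0.06 at E15.5 (9716 genes). Each pairing of a P42 Ribo-seq with a P42 RNA-seq library gave medians of -0.47 to -0.49 for genes under 600 bases and 0.61 to 0.64 for genes of 2400 bases or more. The other tissues had contrasts of the same direction at P42: the median of genes of 2400 bases or more minus that of genes under 600 bases came to 1.09 in P42 liver, against 1.14 in brain, 1.07 in kidney, 1.05 in lung, 0.90 in heart and 0.26 in retina. TOP genes were low at every length, with P42 medians of -2.44 under 300 bases (9 genes), -2.80 from 300 bases (49), -2.54 from 600 bases (29) and -2.14 from 1200 bases (10). TPM divides by all exons while footprints lie on the coding part, and loading also went with the coding share of the exons across genes (rho 0.22 at P42 and 0.19 at E15.5).

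**Figure D4:**
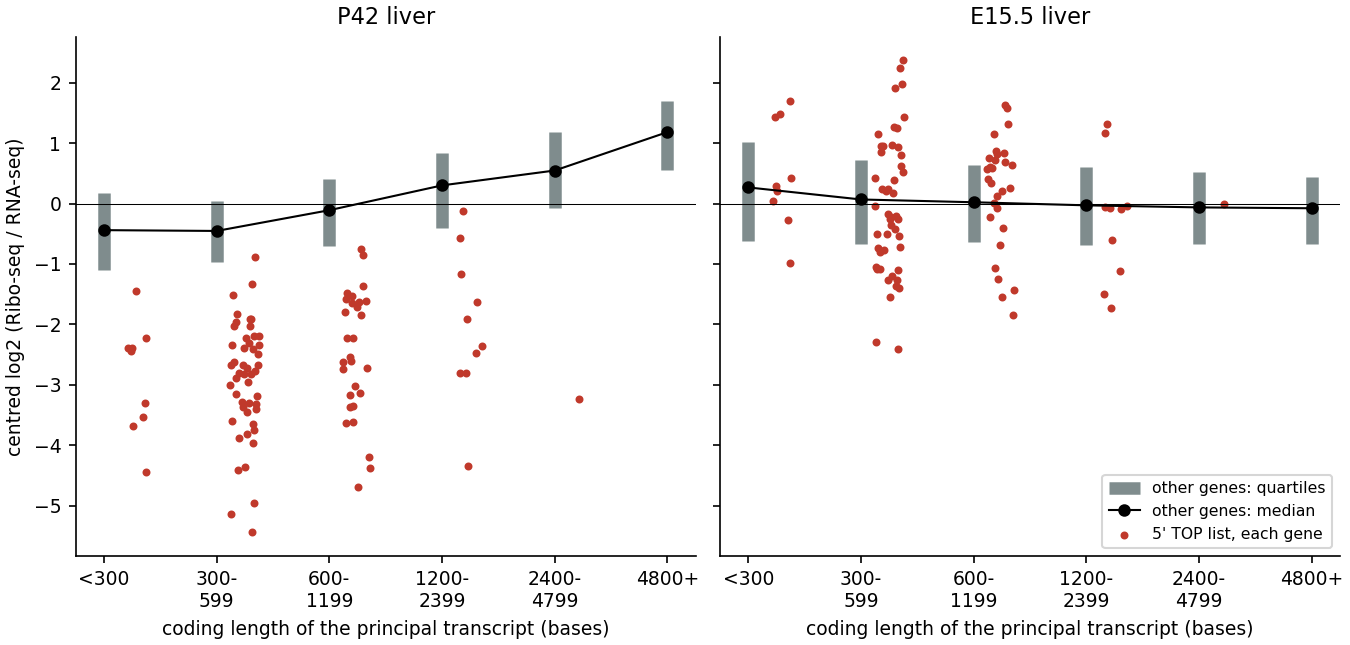
Median centred log2 ratio by coding length in bases for genes outside the TOP, histone and mitochondrially encoded lists (black, with quartiles as bars) and for each TOP gene (red points), at P42 and at E15.5. At P42 the medians climb to 1.18 in the longest bin and at E15.5 they stay between -0.08 and 0.27, and the TOP genes lie below the black line at P42.

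The genes with the highest loading at P42 include very long proteins of the hepatocyte. Apob, the 4505-codon scaffold of lipoproteins, had 1358 and 2055 TPM in P42 Ribo-seq, against 434 and 406 TPM in P42 RNA-seq, and 870 and 800 TPM in E15.5 Ribo-seq, against 781 and 558 TPM in E15.5 RNA-seq. Cps1, the 1500-codon entry enzyme of the urea cycle, had 2589 and 3571 TPM in P42 Ribo-seq, against 784 and 735 TPM in P42 RNA-seq, and 97.9 and 82.8 TPM in E15.5 Ribo-seq, against 86.4 and 58.6 TPM in E15.5 RNA-seq. Both had ratios near 3 at P42 (3.03 for Apob and 3.04 for Cps1) and near 1 at E15.5 (1.13 and 1.12), and both rose between ages, by 1.95 (adjusted p = 0.000344) and 1.96 (adjusted p = 0.000396). The E15.5 calls of Apob and Cps1 ended without E15.5 RNA-seq replicate 2 (0.94 and 0.91). Clotting factor F5 (2.60), fibronectin Fn1 (2.57) and the protease inhibitor Pzp (2.53) were also called higher at P42.

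Several of the largest rises were in single genes of lipid metabolism. The fatty acid oxidation list as a whole, given below, had a share of rises near that of all genes. Gpam, which makes the first committed step of glycerolipid synthesis, had 50.8 and 75.2 TPM in P42 Ribo-seq, against 4.94 and 5.49 TPM in P42 RNA-seq. Gpam thus lay close to the floor of 5 TPM in P42 RNA-seq, and its ratio there rests on these low values. At E15.5 it had 61.3 and 51.8 TPM in Ribo-seq, against 102.9 and 89.7 TPM in RNA-seq. Footprint levels were thus alike at both ages while the message was far lower at P42, and the ratio rose by 4.40 (adjusted p = 6.25e-10). Ppara, the nuclear receptor that drives fatty acid oxidation, had 76.0 and 133.6 TPM in P42 Ribo-seq, against 9.54 and 10.4 TPM in P42 RNA-seq, and 12.6 and 14.3 TPM in E15.5 Ribo-seq, against 21.5 and 16.3 TPM in E15.5 RNA-seq. Its ratio was 4.26 at P42 and 0.34 at E15.5, and it rose by 3.96 (adjusted p = 7.3e-09). Abca6, a lipid transporter of the ABC family, and A1cf, a cofactor of Apob message editing, rose by 3.23 and 3.14.

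Messages of secreted hepatocyte proteins were called higher more often than the 13.9% of all tested genes at each age. Of 99 tested at P42, 39 were called higher and 6 lower (median 0.83), and of 87 tested at E15.5, 52 were called higher and 0 lower (median 1.13). Without centring the P42 median turned to -0.21, with 6 higher and 20 lower, and the E15.5 median was 0.34, with 7 higher and 5 lower, so the list stood above the median message rather than above a ratio of TPM of 1. Clotting and complement proteins gave 22 of 42 higher at P42 and 23 of 40 at E15.5, with medians of 1.13 and 1.09 and 0 lower at either age, and without centring these medians were 0.09 and 0.30. By the change between ages 7 of 86 secreted proteins rose, a share near the 8.91% of all genes, and 16 fell, beside 12.6% of all genes. The number that rose was 1 to 3 without any single E15.5 Ribo-seq library, E15.5 RNA-seq replicate 1 or P42 RNA-seq replicate 2, and without the last of these 10 fell.

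Albumin, Alb, the main plasma protein, had 61358 and 73121 TPM in P42 Ribo-seq, against 96773 and 87929 TPM in P42 RNA-seq. In E15.5 liver it had 57475 and 49898 TPM in Ribo-seq, against 34971 and 29637 TPM in RNA-seq. It was called higher at E15.5 (1.52) and not at P42 (0.58), and without centring the E15.5 value was 0.73 and not called. Afp, its fetal relative, was called higher at E15.5 (1.97) and lay below the floor at P42. Several secreted proteins fell between ages. Hamp, the iron hormone hepcidin, fell by 2.29 on the log2 scale, with 717 and 2189 TPM in P42 Ribo-seq, against 1096 and 1917 TPM in P42 RNA-seq, and 72.6 and 70.0 TPM in E15.5 Ribo-seq, against 21.4 and 7.68 TPM in E15.5 RNA-seq. That call ended without P42 Ribo-seq replicate 1 (-1.74). Haptoglobin, Hp, fell by 1.64, and transferrin, Trf, fell by 1.99, though exons of Trf overlap another annotated gene. The alpha-1-antitrypsin genes Serpina1a (-3.36 at P42) and Serpina1c (-2.17 at P42) are near-identical copies between which reads can be split, so their values are uncertain.

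**Figure D5:**
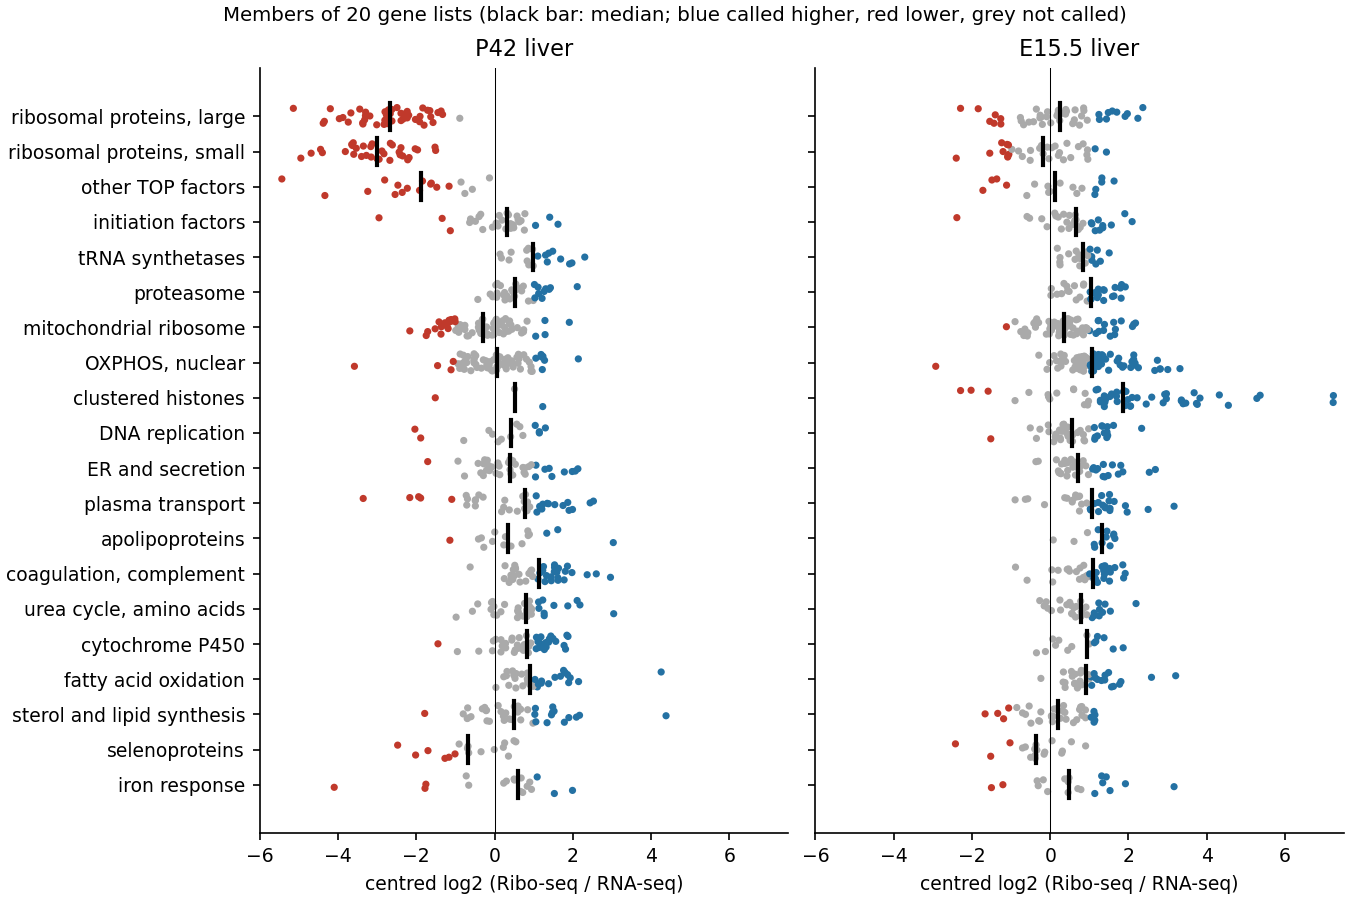
Centred log2 ratio of Ribo-seq to RNA-seq by gene list at P42 and at E15.5, for 20 lists, with 1 point for each gene (blue called higher, red called lower, grey not called) and a black bar at the median. The TOP lists stand apart below 0 at P42, and at E15.5 clustered histones (median 1.87), coagulation and complement proteins (1.09) and nuclear respiratory chain subunits (1.06) stand above 0.

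Fatty acid oxidation, amino acid and cytochrome P450 genes were called higher more often than all tested genes (13.9% at each age). Fatty acid oxidation genes gave 15 of 34 higher and 0 lower at P42 and the same counts at E15.5, with medians of 0.91 and 0.93. By the change 3 of 34 rose and 1 fell (median -0.03), a share of rises near the 8.91% of all genes. Fabp1, the fatty acid binding protein of hepatocytes, was the member that fell. It had 16612 and 18335 TPM in P42 Ribo-seq, against 29491 and 28828 TPM in P42 RNA-seq, and 684 and 678 TPM in E15.5 Ribo-seq, against 160.1 and 100.3 TPM in E15.5 RNA-seq, so that its ratio fell by 2.86 (adjusted p = 4.65e-07). Urea cycle and amino acid genes gave 10 of 37 higher at P42 and 10 of 31 at E15.5 with 0 lower, and cytochrome P450 genes 19 of 44 higher and 1 lower at P42 and 6 of 15 higher at E15.5. Cholesterol and fatty acid synthesis gave 13 of 39 higher and 1 lower at P42 (median 0.51) and 5 of 37 higher and 4 lower at E15.5 (median 0.20), a share near that of all genes. Without centring the list gave 3 higher and 12 lower at P42 (median -0.54) and 0 higher and 12 lower at E15.5 (median -0.59). The change called 10 of 37 of these higher, but 3 to 6 without P42 RNA-seq replicate 2, E15.5 RNA-seq replicate 1 or either E15.5 Ribo-seq library. Insig1, which holds the sterol sensor in the endoplasmic reticulum, was called lower at both ages (-1.78 at P42 and -1.34 at E15.5).

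Nuclear encoded subunits of the respiratory chain were loaded above the median message before birth, in the other 5 tissues as in liver. Their E15.5 medians were 1.06 in liver, against 1.03 in brain, 0.97 in heart, 0.92 in lung, 0.81 in kidney and 0.62 in retina. Their P42 medians were 0.05 in liver, against 0.15 in brain, -0.20 in heart, 0.33 in lung, -0.14 in kidney and 0.75 in retina. In liver, 43 of 77 such subunits of the chain and of ATP synthase were called higher and 1 lower at E15.5. This stands beside 13.9% higher and 15.4% lower among all genes. At P42, 7 were higher and 4 lower (median 0.05), beside 13.9% and 15.6%. Without centring 1 was higher and 37 lower at P42 (median -0.99), and 16 were higher and 2 lower at E15.5 (median 0.27). By the change, 42 fell and 1 rose (median -1.10), with 26 or 27 that fell without a single E15.5 Ribo-seq library. Atp5k, a small subunit of ATP synthase, had 75.2 and 133.7 TPM in P42 Ribo-seq, against 300.7 and 430.2 TPM in P42 RNA-seq, and 123.6 and 123.6 TPM in E15.5 Ribo-seq, against 22.5 and 18.9 TPM in E15.5 RNA-seq. Its message rose with age while its footprints did not, and the ratio fell by 4.06 (adjusted p = 1.63e-08). Ndufs1, the largest subunit of complex I, was the member that rose (1.05), a call lost in 5 of the 8 fits without a single library, and it was called higher at P42 (2.14) and at E15.5 (1.13). Its exons overlap Eef1b2, a TOP gene. Cox7a2l, a factor of respiratory supercomplexes, was called lower at both ages (-3.58 at P42 and -2.93 at E15.5).

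Mitochondrial ribosomal proteins gave 4 of 77 higher and 15 lower at P42 (median -0.28) and 15 higher and 1 lower at E15.5 (0.36). Without centring the list gave 0 higher and 53 lower at P42 (-1.33), and its E15.5 direction turned, with 4 higher and 14 lower (-0.43). By the change 22 fell and 0 rose, with 11 or 12 that fell without P42 RNA-seq replicate 2 or a single E15.5 Ribo-seq library. The 15 of 77 lower at P42 stand beside 15.6% of all tested genes. Higher calls in this paragraph stand beside 13.9% of all tested genes at each age, and lower calls at E15.5 beside 15.4%. Subunits of the proteasome, which degrades tagged proteins, gave 10 of 34 higher at P42 (median 0.52, and -0.52 without centring) and 18 of 32 higher at E15.5 (median 1.04), with 0 lower. In the other tissues, proteasome medians ran from 0.54 in kidney to 0.92 in lung at P42. At E15.5 proteasome medians there ran from 0.93 in retina to 1.10 in heart. Psmd14, its deubiquitinating subunit, was at 2.11 in P42 liver and 1.92 in E15.5 liver. Cytosolic aminoacyl tRNA synthetases, which charge tRNAs, gave 9 of 19 higher at P42 (median 0.99, and -0.05 without centring) and 7 of 20 at E15.5 (0.83), with 0 lower. Initiation factors outside the TOP list gave 3 higher and 3 lower of 31 at P42 and 10 higher and 1 lower of 32 at E15.5. Eif4ebp2, a repressor of cap-dependent initiation, was lower at both ages (-2.95 at P42 and -2.39 at E15.5). Genes of translocation and folding in the endoplasmic reticulum gave 9 of 40 higher and 1 lower at P42 and 14 of 39 higher and 0 lower at E15.5, with the chaperone Hspa5 at 1.99 and 1.86.

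Ferritin messages were poorly loaded in P42 liver, as in the other 5 tissues at P42. Fth1, the heavy chain, had 373 and 593 TPM in P42 Ribo-seq, against 3504 and 3160 TPM in P42 RNA-seq, and 1454 and 1548 TPM in E15.5 Ribo-seq, against 1966 and 1285 TPM in E15.5 RNA-seq. Its ratio was -1.78 at P42 and 0.71 at E15.5, and it fell by 2.44 between ages (adjusted p = 1.92e-05). Ftl1, the light chain, had 38.2 and 138 TPM in P42 Ribo-seq, against 2381 and 2851 TPM in P42 RNA-seq, and 159 and 196 TPM in E15.5 Ribo-seq, against 830 and 905 TPM in E15.5 RNA-seq. It was called lower at both ages (-4.10 at P42 and -1.50 at E15.5), and its exons overlap other annotated genes. Against the mean of the other tissues, the ratio of Fth1 was 1.81 higher in E15.5 liver (adjusted p = 8.83e-06) and 0.80 at P42 (adjusted p = 0.0867, not called). Fth1 ratios at P42 were -2.92 in brain, -2.77 in heart, -3.41 in kidney, -2.03 in lung and -1.51 in retina. Those of Ftl1 at P42 were -3.54 in brain, -2.74 in heart, -4.18 in kidney, -3.56 in lung and -2.46 in retina. Of the 20 genes of the iron list, 3 of 18 tested were called higher and 3 lower at P42, and 7 of 19 higher and 2 lower at E15.5. Among all tested genes 13.9% were called higher and 15.6% lower at P42, so the P42 counts are near those shares. At E15.5 the shares of all tested genes were 13.9% and 15.4%. Tfrc, the transferrin receptor, was called higher at E15.5 (1.43, and 0.64 without centring, not called) and lay below the floor at P42.

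The iron-responsive element of the 5′ untranslated region is shown for 4 contiguous matches, 2 in ferritin messages and 2 in messages whose loading was not called. Capitals mark the CAGTG loop and the base after it, on GRCm38 coordinates.
Fth1, chr19:9982731-9982760, plus strand: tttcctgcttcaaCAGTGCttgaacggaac
Ftl1, chr7:45459779-45459808, minus strand: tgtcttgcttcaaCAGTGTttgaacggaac
Slc40a1, chr1:45925465-45925494, minus strand: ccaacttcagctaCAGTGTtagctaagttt
Epas1, chr17:86753767-86753796, plus strand: gtacaatcctcggCAGTGTcctgagactgt
The search was for C, any 5 bases, CAGTG and then A, C or T, on the sense strand of the 5′ untranslated region of the principal transcript, and 358 of 6870 genes tested at P42 (5.21%) hold it. Slc40a1, the iron exporter ferroportin, had 18.3 and 39.9 TPM in P42 Ribo-seq, against 31.4 and 39.2 TPM in P42 RNA-seq, with a ratio of 0.68 at P42 and 0.37 at E15.5. Alas2, the first enzyme of red cell heme synthesis, which also holds a match, was at 0.66 and -0.07. None of the 3 genes Slc40a1, Epas1 and Alas2 was called at either age.

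Messages known for upstream reading frames or stress-responsive translation included several of low loading at both ages. Of 19 tested at P42, 8 were called lower and 1 higher, beside 15.6% lower among all tested genes, and of 22 tested at E15.5, 10 were lower and 3 higher, beside 15.4% lower. Atf4, the transcription factor of the integrated stress response, had 4.36 and 11.6 TPM in P42 Ribo-seq, against 83.1 and 103.7 TPM in P42 RNA-seq, and 42.7 and 32.8 TPM in E15.5 Ribo-seq, against 276 and 270 TPM in E15.5 RNA-seq. Its ratios were -2.47 at P42 and -2.04 at E15.5, and the change was -0.38 (adjusted p = 0.552). Odc1, the first enzyme of polyamine synthesis, was at -2.26 and -2.39. Oaz1, the antizyme that is made by frameshifting and degrades it, was at -2.41 and -1.59. Cebpb, a liver transcription factor, fell by 2.16 between ages, with -1.16 at P42 and 1.04 at E15.5. Its P42 call ended without P42 Ribo-seq replicate 1 (-0.81) or P42 RNA-seq replicate 2 (-0.92), and its E15.5 call without E15.5 Ribo-seq replicate 1 (0.83) or E15.5 RNA-seq replicate 1 (0.87). Selenoproteins, in which a stop codon is read as selenocysteine, gave 6 of 17 lower at P42 and 3 of 18 lower at E15.5 with 0 higher, and the E15.5 share is near that of all genes. The phospholipid peroxidase Gpx4 (-2.02 at P42 and -1.52 at E15.5) and Selenow (-2.47 and -2.42) were low at both ages. Gpx1, the main cytosolic peroxidase, was called at P42 (-1.16), a call that ended without P42 RNA-seq replicate 2 (-0.99), and was at -0.38 at E15.5. Selenop, the selenium carrier of plasma, was called at neither age (-0.69 and -0.64).

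Replication-dependent histones, whose messages end in a stem-loop instead of a poly(A) tail, stood apart at E15.5. Of 67 listed genes 57 passed the floor at E15.5 and 3 at P42, and 42 were called higher and 3 lower at E15.5 (median 1.87, and 1.08 with 29 higher and 5 lower without centring). Clustered histones held 7.83% and 8.74% of the TPM total in E15.5 Ribo-seq and 3.08% and 4.07% in E15.5 RNA-seq. The RNA-seq share in E15.5 liver was far above that of the other tissues of that age, whose RNA-seq libraries held 0.0167% to 0.0562%, although per the labels all RNA-seq libraries were made with the same poly(A) kit. In the same libraries mitochondrially encoded genes held 0.859% and 0.341%, against 4.72% to 14.98% in RNA-seq of the other tissues at E15.5. What set the E15.5 liver RNA-seq libraries apart was not tested, and ratios of both gene classes rest on them. Histone messages without a tail lack what the kit selects, so their ratios may not measure loading alone. The part of the kit was not tested. Hist1h3h, a histone H3 gene, had 1744 and 2092 TPM in E15.5 Ribo-seq, against 18.2 and 24.02 TPM in E15.5 RNA-seq (7.24), and Hist1h1c, a linker histone gene, 3532 and 3734 TPM, against 1387 and 1645 TPM (2.05). Core histone genes have near-identical copies, so values of single genes are uncertain. Of the 6 histone genes that could be compared with the other tissues, 5 were lower in E15.5 liver, Hist1h1c by 4.57 on the log2 scale among them. With histone and mitochondrially encoded genes left out and the rest rescaled, the counts of all genes called stayed within 1.5 times of those given. That rescaling multiplies all genes of a library by the same factor, and centring removes a shift shared by all genes. The setting therefore cannot show whether the make-up of these libraries matters for the other genes.

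Globin messages split by chain in E15.5 liver. Hba-a1, an alpha globin gene, had 19.4 and 19.7 TPM in P42 Ribo-seq, against 177 and 116 TPM in P42 RNA-seq, and 7613 and 7538 TPM in E15.5 Ribo-seq, against 1665 and 2288 TPM in E15.5 RNA-seq. Hbb-bs, an adult beta globin gene, had 78.0 and 82.4 TPM in P42 Ribo-seq, against 389 and 267 TPM in P42 RNA-seq, and 11088 and 11166 TPM in E15.5 Ribo-seq, against 76873 and 90064 TPM in E15.5 RNA-seq. At E15.5 the ratio was thus 2.74 for Hba-a1 and -2.11 for Hbb-bs, both called. The near-identical Hba-a2 was called higher too, and Hbb-bt was called lower at -1.31. Reads of copies within each pair can be split, so the level of a single gene is uncertain. The fall of Hba-a1 between ages was 4.47 on the log2 scale, while the rise of Hbb-bs (1.21) lost its call without P42 RNA-seq replicate 2 (0.92) and in 4 other fits without a single library. The mitochondrial iron importer Slc25a37, which red cell precursors use for heme, was called lower at both ages (-2.33 at P42 and -2.75 at E15.5). Of 36 other erythroid genes tested at E15.5, 4 were called higher and 9 lower, beside 13.9% and 15.4% of all tested genes. Their higher share is thus near that of all genes.

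Genes of the mitochondrial genome are translated by the mitochondrion's own ribosomes. Of 12 tested at P42, 3 were called higher and 4 lower, and of 10 tested at E15.5, 3 were higher and 1 lower. Among all tested genes 13.9% were called higher and 15.6% lower at P42, and 13.9% and 15.4% at E15.5. mt-Atp8 had 11837 and 15509 TPM in P42 Ribo-seq, against 19393 and 12414 TPM in P42 RNA-seq, and 1752 and 1531 TPM in E15.5 Ribo-seq, against 110.6 and 67.6 TPM in E15.5 RNA-seq. Its ratio was 0.85 at P42 and 5.02 at E15.5, and it overlaps mt-Atp6, which was at 0.97 and 4.12. Against the other tissues, 10 of 10 were higher in E15.5 liver (median 3.33) and 6 of 11 in P42 liver (median 1.58), and the P42 count ranged from 3 to 7 over fits without a single library.

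The floor of 5 TPM did not sit at a step in the data. Genes just inside it, at 5 to 6 TPM in RNA-seq, had median ratios of 0.25 at P42 (572 genes) and -0.08 at E15.5 (502 genes). Those just outside, at 4 to 5 TPM, had 0.35 at P42 (687 genes) and -0.09 at E15.5 (585 genes). Of the tested genes 8 were at 0 in both P42 Ribo-seq libraries and 18 in both E15.5 Ribo-seq libraries, for which the ratio depends on the pseudocount. Some of the lowest ratios belong to genes that share exons with an abundant neighbour. Ccdc152, at -8.86 in P42 liver and -3.57 in E15.5 liver, overlaps Selenop, and its 1.70 and 6.08 TPM in P42 Ribo-seq stood against 4123 and 4237 TPM in P42 RNA-seq, so these RNA-seq values cannot be assigned to it with certainty. Lars2, the mitochondrial leucyl tRNA synthetase, was at -4.70 in P42 liver and -0.21 in E15.5 liver, and its RNA-seq replicates at P42 differed (159 and 390.4 TPM).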

How the data were processed

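Liver of wild-type C57BL/6 mice was profiled by Ribo-seq and RNA-seq at P42 and E15.5. Per the labels' protocols, tissue was lysed with cycloheximide, footprints were made with an ARTseq kit after rRNA depletion, and RNA-seq used a poly(A) kit. The authors deposited TPM values per gene in 1 table for each age and assay. The submitters' processing notes name GRCm38.p6, CASAVA 1.8.2, cutadapt 1.8.1, TopHat2 2.0.14, Subread and featureCounts 1.6.2. The sources used here give neither strand nor the handling of reads with several matches. TPM keeps no read total, so the depth of each library is unknown and no counting interval is given, and the number of libraries limits the precision.

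From the deposited TPM, log2(TPM + 1) was fitted with limma 3.58.1 (R 4.3.3, variance trend) over the 8 liver libraries in 4 groups, and over the 24 libraries of an age for liver against the other tissues. Ribo-seq minus RNA-seq was centred on the median tested gene, and p-values were adjusted by Benjamini-Hochberg over all tested genes. Genes needed a mean RNA-seq level of 5 TPM. The fit was tested on simulated data. Tables were made with Python 3.11.15, pandas 2.3.3 and numpy 2.4.6, and figures with matplotlib 3.10.9. Of 22055 gene IDs 22029 matched GENCODE release 21 for mouse on GRCm38, which gave coordinates, coding lengths, overlaps and untranslated regions, and start windows came from RefSeq. Levels set across ages or assays come from separate tables.

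The members and gene lists were chosen with earlier results of these data known, and lists are described by counts and medians with no test. Named genes were those with the largest called ratios at each age, in the change and against other tissues, up to 4 called members of each list, and a set of well-known liver and translation genes. Alternatives were pseudocounts of 0.25 and 4, RNA-seq floors of 20 and 1 TPM or none, a Ribo-seq floor of 1 TPM, no centring, histone and mitochondrially encoded genes left out, no variance trend, all 48 libraries, a replicate block and each liver library left out. Counts of lists under these settings were added after the data were seen. Cyp2c44 and Ahsp were not analysed here. Some genes are not reported here.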

Additional observations from a re-analysis of the deposited data

Results flagged for a closer look

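The effect of age on liver loading was tested as a difference between ages and passed for 564 genes that rose and 796 that fell in P42 liver relative to E15.5 liver. Among abundant or strongly moved genes the change in centred log2 ratio was -4.95 for Rpl39, -4.59 for Rps20, -4.59 for Rpl36a, -4.03 for Tpt1 and -3.94 for Rpl31, all of the TOP list. It was -5.25 for Ccdc152, which shares exons with Selenop, -4.47 for Hba-a1 and -4.12 for mt-Atp8. On the other side it was 1.96 for Cps1, 1.95 for Apob, 1.71 for Acox2 (a peroxisomal oxidase of bile acid synthesis), 1.56 for Acsl5 (an acyl-CoA synthetase), 1.46 for F13b (a subunit of clotting factor XIII), 1.42 for Rab43, 1.40 for Gm49369 and 1.35 for Adipor2 (an adiponectin receptor). The calls of F13b, Gm49369 and Adipor2 ended without E15.5 Ribo-seq replicate 2 (1.35, 1.40 and 1.33).

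Liver differed from the mean of the other 5 tissues for 37 genes higher and 83 lower at P42, and for 521 higher and 205 lower at E15.5. At P42 the lower ones included Ccdc152 (-3.41), Cdk4 (-2.17), Trf (-2.15), Gm20425 (-2.12), Rps20 (-1.96) and Rpl32 (-1.90). The higher ones at P42 included mt-Nd4l (2.69), Gm45808 (2.57), mt-Nd5 (2.44), mt-Atp6 (2.25), Nme7 (2.07) and Syn3 (1.93). Cdk4, a kinase of the cell cycle, had 4.88 and 8.78 TPM in P42 liver Ribo-seq, against 220 and 203 TPM in P42 liver RNA-seq, and its ratio was -3.76 in P42 liver, against -1.79 in brain, -1.02 in heart, -1.63 in kidney, -1.74 in lung and -1.55 in retina. Its exons overlap Tspan31. Trf and Gm20425 overlap each other, and Nme7, Syn3 and Gm45808 also share exons with neighbours, so their values are uncertain.

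At E15.5 the genes lower in liver included Ccdc107 (-6.34), Hist1h1c (-4.57), Hist1h2bc (-3.22), Trim17 (-3.19), Gm19426 (-2.86) and Hist3h2a (-2.78). Ccdc107 overlaps the RNA gene Rmrp, and Trim17 overlaps Hist3h2a. The higher ones included mt-Atp8 (8.07), mt-Atp6 (7.22), mt-Nd2 (4.96), mt-Cytb (4.35), Slc24a5 (4.29) and Gp1bb (3.95). The share of histones was high and that of mitochondrially encoded genes low in the E15.5 liver RNA-seq libraries, as given above, and the part of this in these values was not tested. Groups of 2 libraries are too small to look for single libraries that stand apart by value.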

How the results depend on the processing

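For single named genes, none of those called reversed direction. Under other settings 10795 values kept their side of the threshold, 511 lost a call and 116 gained one. The 10795 include values called neither as reported nor under the setting, whose direction was not compared. Some settings that kept all liver libraries moved no count of called genes beyond 1.5 times. These were a pseudocount of 0.25, histone and mitochondrially encoded genes left out, no variance trend, all 48 libraries and the replicate block. In what follows the cause was not tested unless fewer or more genes were tested by construction, as under another floor. At P42 (972 higher, 1094 lower) the counts were 584 higher with a pseudocount of 4, 498 and 619 with a floor of 20 TPM, 3357 lower with no floor, and 111 and 3621 without centring. At E15.5 (1373 and 1526) they were 796 lower with a pseudocount of 4, 629 and 950 with a floor of 20 TPM, 2855 lower with no floor, and 275 and 4098 without centring. For the change (564 and 796) they were 371 higher with a pseudocount of 4, 199 and 304 with a floor of 20 TPM, 1007 and 1325 with a floor of 1 TPM, 1396 and 1636 with no floor, and 251 and 1270 without centring, and 298 to 577 higher and 500 to 816 lower with a single library left out. For liver against other tissues at P42 (37 and 83) they were 62 higher with a pseudocount of 4, 13 and 42 with a floor of 20 TPM, 189 and 144 with a floor of 1 TPM, 985 and 529 with no floor, and 23 higher with a Ribo-seq floor. At E15.5 (521 and 205) they were 212 and 55 with a floor of 20 TPM, 380 lower with a floor of 1 TPM, 1656 and 910 with no floor, and 1430 and 52 without centring.

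Without centring the P42 counts of several lists turned to more lower than higher. Nuclear encoded respiratory chain subunits had 1 higher and 37 lower, and secreted proteins 6 and 20. Plasma proteins of transport and defence, part of the secreted list, had 2 and 13. Sterol and lipid synthesis had 3 and 12, and the proteasome 1 and 4. With no floor or a floor of 1 TPM, liver against other tissues at P42 had more higher than lower calls.

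The replicate block gave 567 higher and 813 lower for the change. Same-numbered Ribo-seq and RNA-seq libraries share only a number, and their deviations from the group means correlated across genes at 0.415 at P42 and 0.1971 at E15.5, and whether they come from the same animals is not known. Low footprint levels limit the ratios of weakly translated genes, since the pseudocount then sets their lower end.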

Other observations

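Shares among all tested genes, to be read beside the counts here, were 13.9% higher and 15.6% lower at P42 and 13.9% higher and 15.4% lower at E15.5. Of 33 liver transcription factors tested at P42, 9 were called lower and 1 higher (median -0.41), and of 29 tested at E15.5, 8 were lower and 1 higher (median -0.42). Nr2f6, an orphan nuclear receptor, had 2.49 and 5.19 TPM in P42 Ribo-seq, against 41.3 and 61.7 TPM in P42 RNA-seq, with ratios of -2.43 at P42 and -1.25 at E15.5. Rxra, the shared partner of many nuclear receptors, was called at both ages (-1.32 at P42 and -1.74 at E15.5), and Hnf4a, the master factor of hepatocytes, at E15.5 (-1.38) and not at P42 (-0.85). Immediate early genes gave 7 of 27 lower and 2 higher at P42 (median -0.70) and 3 of 29 lower and 1 higher at E15.5 (median 0.08), with Jund, an AP-1 subunit, at -2.98 and -0.83. Clock genes gave 2 of 15 lower at P42 and 2 of 12 at E15.5, with 0 higher, so their lower shares are near those of all genes.

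Genes of dividing cells were mostly measured at E15.5. DNA replication genes gave 13 of 43 higher and 1 lower there (median 0.55), against 4 higher and 2 lower of 15 at P42. Cell cycle genes gave 9 of 40 higher and 2 lower at E15.5 (median 0.62), and 5 were tested at P42. Histone variants with poly(A) tails gave 0 of 8 higher and 2 lower at P42 and 2 of 11 higher and 1 lower at E15.5. Apolipoproteins gave 3 of 16 higher and 1 lower at P42 and 10 of 13 higher and 0 lower at E15.5, and other plasma proteins of transport and defence 14 of 41 higher and 5 lower at P42 and 19 of 34 higher and 0 lower at E15.5. Glucose metabolism genes gave 8 of 27 higher and 1 lower at P42 and 6 of 28 higher and 1 lower at E15.5. Imprinted growth genes gave 3 of 19 higher and 2 lower at E15.5, and their higher share and that of histone variants at E15.5 are near that of all genes.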
